A study of Bos taurus with 15 samples.

Results

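The endometrium of pregnant cows was compared between day 18 and day 15 of pregnancy. The samples were chosen by their labels alone, 4 arrays labelled P18 and 3 arrays labelled P15, which are 7 of the 15 arrays of the series. Each array held RNA of 1 Japanese Black cow, taken from the caruncular endometrium of the uterine horn on the side of the corpus luteum, and the day of insemination was counted as day 1. Pregnancy was scored by eye, from whether trophoblast was seen in the opened horn. Day 15 of pregnancy has 1 array fewer than each other group, and a further cow of that day was not analyzed here. The other 8 arrays came from cows on days 15 and 18 of the estrous cycle (NP15 and NP18, 4 arrays each), and they served to estimate the spread and to compare the change with that of the cycle.

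These days span the recognition of pregnancy in cattle. The elongating conceptus is covered by trophoblast, which secretes interferon-tau, a type I interferon that acts on the uterus and prevents the regression of the corpus luteum. Type I interferons bind a receptor on the cell surface, STAT and IRF proteins carry the signal to the nucleus, and a large set of interferon-stimulated genes is transcribed. At the same time, the uterine glands and epithelium secrete the histotroph, a mixture of nutrients and proteins on which the conceptus lives until it attaches.

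Expression was measured on a custom one-color array of bovine oligonucleotide probes. A signal is given below as a multiple of the array's own median, and a change is a difference of mean log2 signals, day 18 minus day 15. Signals of different genes come from different probes and were not compared with each other. A gene was called at an adjusted p of limma under 0.05 together with a change of more than 2-fold, and a gene is said to have risen or fallen only when it was called. Of the 15208 probes, 13164 were tested, and 1566 of them (11.9%) were called, 998 higher and 568 lower on day 18. Over the 6218 gene symbols tested, with 1 probe each, 803 (12.9%) were called, of which 571 (9.18% of all symbols) were higher and 232 (3.73%) lower. In bulk tissue, fewer cells of a type and less RNA per cell cannot be told apart.

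Whether more genes were called higher or lower depended on the scaling. The median change of all symbols was 0.17 after division by the array median, but it was -0.12 after division by the 75th percentile and -0.03 after quantile normalization. The share of called probes that were higher was 63.7% in the first case, and it was 31.2% of 1648 calls and 41.2% of 1569 calls in the other cases. Calls made in the same direction under all 3 scalings were counted separately for this reason: 497 symbols (7.99%) met this, 274 higher and 223 lower. The change also moved with the base composition of the probe. Its median was 0.29 for probes with a GC content up to 35% and -0.16 for probes over 50% GC, and in the cycle these medians were 0.34 and -0.32. After this trend was removed from each array, a step added once the data had been seen, 1370 probes were called and 53.5% of them were higher, and the part of base composition in the changes of single genes was not tested beyond that.

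On day 15 of pregnancy 78.6 to 88.3% of probes were well above background, and on day 18 65.6 to 73.9%. The lowest signal well above background was 0.0196 to 0.0519 array medians on day 15 and 0.102 to 0.180 on day 18, so a weak transcript was more often lost on day 18. Where a gene was well above background in no array of the lower group, its change is a bound, set by the lowest signals well above background in those arrays. The arrays of the higher group entered with their signals as read. A bound is strict only where all of these were well above background. Of the 232 symbols that fell, 60 were well above background in no array of day 18. All arrays of day 15 were scanned on 1 day and all arrays of day 18 on another, so scan day and day of pregnancy cannot be told apart. When the scan day entered limma as a random block, 0 of the 13164 probes were called (1726 at an unadjusted p under 0.05, smallest adjusted p = 0.0752). The methods' t-test with adjustment, which takes no account of scan day, called 1451.

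The gene lists differed widely in how many of their members were called. The lists were chosen with earlier results of these data known, so their shares describe these data and are no independent support. Of 22 lists, the interferon-stimulated genes had the highest share of rises (80.6% of 36 tested members) and the smooth muscle markers the highest share of falls (25.0% of 20). Myeloid, trophoblast, proliferation, complement and antigen presentation lists each had over 3 times the share of rises seen among all symbols. The lists of T, natural killer and B cell markers and of nutrient transporters, with 7.41 and 9.76% higher, were near the background of 9.18%. No member of the erythrocyte and platelet list was called by limma among 6 tested. Of the 3 defining erythrocyte genes, HBB was well above background in none of the 7 arrays, but ALAS2 was in all 7. ALAS2 had signals of 1.68 to 2.21 on day 15 and 1.60 to 7.30 on day 18.

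**Figure D1:**
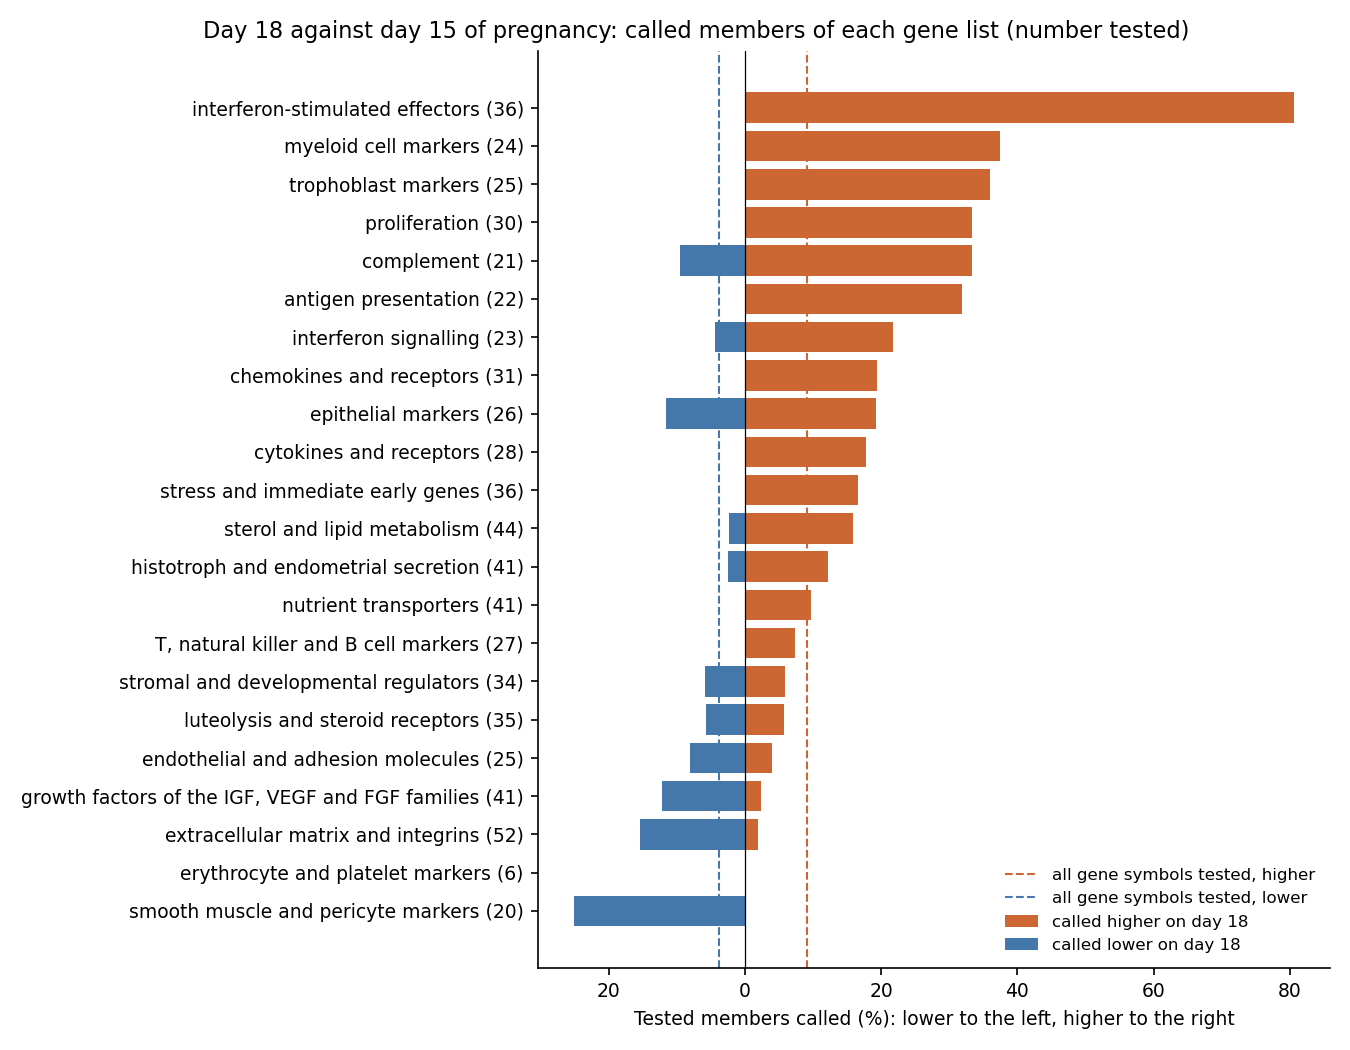
Share of the tested members of each gene list that were called on day 18 against day 15 of pregnancy (x axis, percent, lower calls to the left and higher calls to the right), with the number tested in parentheses. The dashed lines mark all gene symbols (9.18% higher, 3.73% lower), and the interferon-stimulated list reaches 80.6% to the right while the smooth muscle list reaches 25.0% to the left.

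Transcripts of the trophoblast made up the largest rises. On day 15, 5 of them (IFN-tau-c1, IFNT2, TKDP1, PAG2 and PAG11) were well above background in none of the 3 arrays, and on day 18 each was well above background in 3 of 4. Interferon-tau is the signal of pregnancy in ruminants, the trophoblast Kunitz domain proteins (TKDP) are secreted proteins of the trophoblast, and the pregnancy-associated glycoproteins (PAG) are secreted relatives of pepsin. Of 46 trophoblast list members on the array, 25 could be tested, and 9 were called higher and none lower. Among the 9, PAG9 was well above background in no array of day 18. These transcripts rested on short probes, and the first 30 bases of some are shown with those of ISG15 and CXCL10, because members of 1 family could share signal when their probes are alike. Capitals mark the longest unbroken run, of 10 bases, shared by the probes of PAG11 and PAG8.
IFN-tau-c1: cctcgtacactcacctgtgttcatttcaga
IFNT2: agccctctcttcatcaaccaccttgcaaaa
TKDP4: aagaagctccttgctgcattttcttttctg
TKDP1: acatccctcatgaccagagtaactgcagag
PAG11: GGATGCTGGTaaactgtgtttggtgctctg
PAG8: cagGGATGCTGGTgaactatgcctgatgct
ISG15: acccgctggaggaatacggcctcatgaagg
CXCL10: actgccacccctccaaggggcccatattct

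The 60-base probes of PAG11 and PAG8 matched at up to 35 bases when they were slid along each other without gaps. The other 6 pairs of probes within a family matched at 18 to 26 bases. The longest shared run, of 12 bases, lay in the probes of TKDP4 and TKDP3. Whether a probe also binds other members of its family was not tested.

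IFN-tau-c1, a form of interferon-tau, had signals of 0.00398, 0.0105 and 0.00411 on day 15 and 0.0978, 19.5, 16.8 and 117 in replicates 1 to 4 of day 18. Its rise was at least 1230-fold without day 18 replicate 1. With replicate 1 at its signal as read, the same calculation gave 285-fold, and 116-fold without replicate 4, and neither is a strict bound. Every array of day 18 was above every array of day 15, but replicate 1 of day 18 was not well above background. IFNT2 had the same order of arrays, with 0.0170, 0.0210 and 0.0198 on day 15 and 0.0367, 10.9, 8.26 and 66.2 on day 18. It rose at least 662-fold without day 18 replicate 1. With replicate 1 as read, the calculation gave 140-fold, and 54.4-fold without replicate 4.

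TKDP4 was well above background in 1 array of day 15 and in all 4 of day 18. Its signals were 0.0164, 0.0139 and 0.0401 on day 15 and 0.271, 66.6, 45 and 307 on day 18, a log2 change of 10.06 (SE 1.64, limma adjusted p = 0.00223, exact permutation p = 0.0571). Without day 18 replicate 1, TKDP1 rose at least 1471-fold, PAG11 at least 802-fold and PAG2 at least 124-fold. With replicate 1 as read, the calculation gave 297-, 152- and 37.3-fold. Without day 18 replicate 4, it gave 120-, 64.9- and 16.4-fold. The same cow thus set the low end and another the high end of all these transcripts. TKDP3 and PAG8 rose by 5.70 and 5.31 on the log2 scale, and TKDP3, which overlapped between the days, lost its call without day 15 replicate 1 or 2. The ninth member called, PAG9, was well above background in none of the day 18 arrays, so it has no size here.

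Transcription factors of the trophoblast did not share this pattern. The log2 change was 0.10 for CDX2, -0.40 for ELF5 and 1.02 for GCM1, none of them called, and CDX2 and GCM1 were well above background in no array of day 18. The summed signal of the 9 defining trophoblast markers on the array was 0.247 to 0.481 on day 15 and 0.659 to 573 on day 18. The endometrial samples of day 18 therefore held trophoblast transcripts in very unequal amounts. Their part in the level of other genes was not tested.

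**Figure D2:**
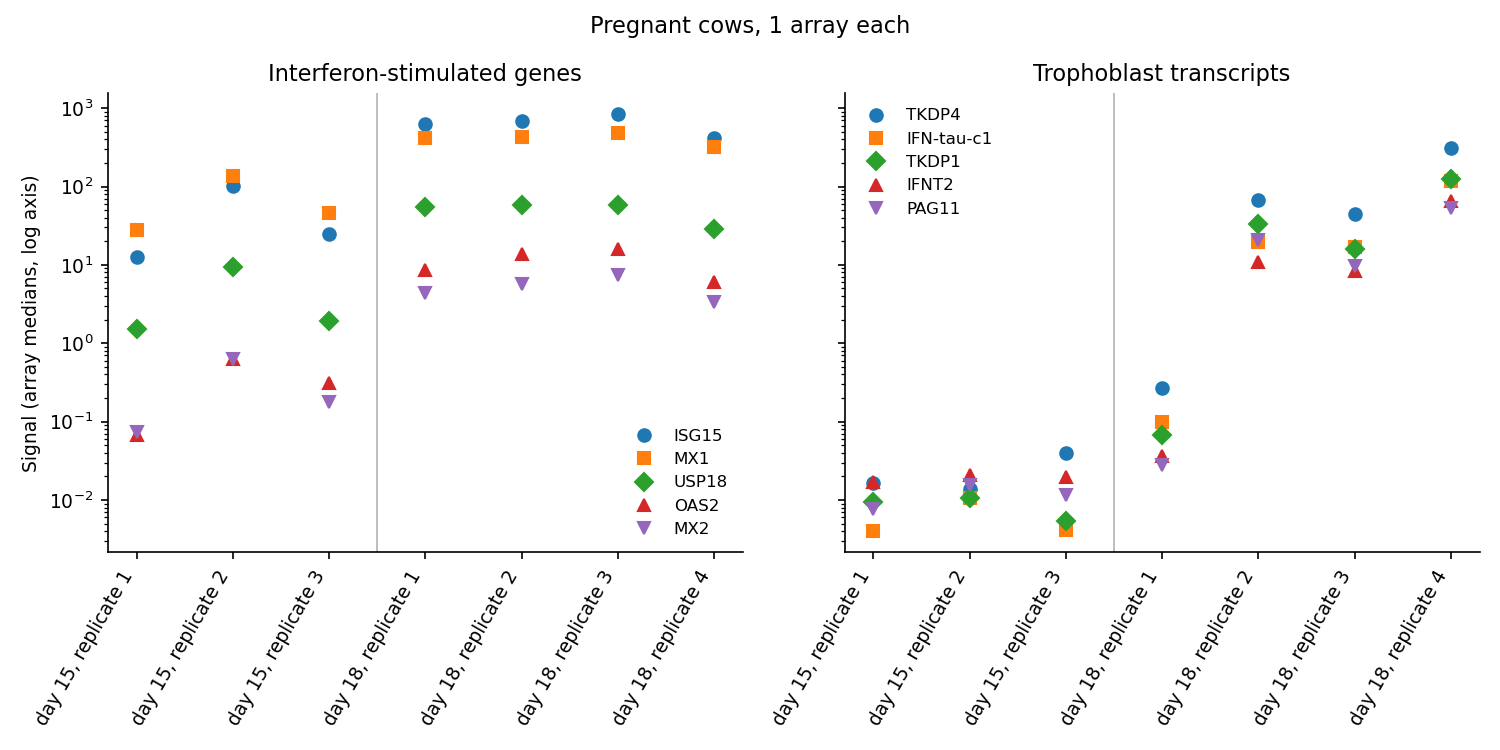
Signal (y axis, array medians, log axis) of 5 interferon-stimulated genes (left) and 5 trophoblast transcripts (right) in each of the 7 arrays of pregnant cows (x axis), 1 point per gene and cow. Day 18 replicate 1 has an ISG15 signal of 626 and an IFN-tau-c1 signal of 0.0978, whereas replicate 4 has 416 and 117.

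Most interferon-stimulated genes rose. Of 36 tested members, 29 were called higher, none lower, 28 of them under all 3 scalings, and the median change was 2.51 against 0.17 over all symbols. All 36 changes were positive. The count was 27 to 29 when any 1 array was left out, and 30 after the GC trend was removed. The members are antiviral effectors and their regulators, among them the ubiquitin-like protein ISG15, the dynamin-like GTPases MX1 and MX2, the oligoadenylate synthetase OAS2 and the protease USP18, which removes ISG15 from proteins.

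ISG15 had signals of 12.6, 103 and 25.0 on day 15 and 626, 689, 834 and 416 on day 18, a log2 change of 4.29 (SE 0.55, limma adjusted p = 0.000665). MX1 had 27.8, 135 and 46.0 on day 15 and 417, 427, 478 and 315 on day 18, a change of 2.86 (SE 0.40, adjusted p = 0.000909). In both genes, day 15 replicate 2 was the highest of its group, but the groups did not overlap. OAS2 went from 0.0678, 0.637 and 0.308 to 8.51, 13.8, 15.8 and 6.11 (change 5.45, SE 0.65, adjusted p = 0.000517), and MX2 from 0.0736, 0.631 and 0.176 to 4.37, 5.68, 7.34 and 3.35 (change 4.63, SE 0.60, adjusted p = 0.000700). For each of these 4 genes the exact permutation test gave p = 0.0286, the smallest value possible with 3 against 4 arrays. ISG15, OAS2 and MX2 belong to the largest rises, a set limited to genes whose groups did not overlap, so this p is no further evidence for them. The groups did not overlap in 45.9% of all symbols.

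The order of the cows was shared by the list. The mean log2 signal of the 36 members was 1.01, 2.03 and 1.21 in the replicates of day 15 and 3.93, 3.96, 4.09 and 3.56 in those of day 18. Day 18 replicate 1, the cow with the least trophoblast signal of its group, had a mean close to those of replicates 2 and 3. Replicate 4, with the most trophoblast signal, had the lowest mean of the 4. USP18 (3.99), RSAD2 (3.91), IFIT3 (3.81), OAS1X (3.69) and the RNA sensor RIGI (3.55) rose by similar amounts on the log2 scale. Each of these 5 and of the 4 genes above was called whichever array was left out.

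A few members were not called. OASL, UBA7 and SAMHD1 had changes of 0.16, 0.12 and 0.09, and LGALS9, PHF11 and MOV10 had 0.73, 0.83 and 0.89. The list was thus uneven in size, from these values up to 5.45.

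The pathway that leads from the receptor to these genes had a smaller share of calls than the interferon-stimulated list. Of 23 tested members of interferon signalling, 5 rose (21.7%, against 9.18% of all symbols) and 1 fell (4.35%, against 3.73%). The median change was 0.38, and the count of calls was 3 to 7 when 1 array was left out, the lowest without day 15 replicate 2. IRF9, the DNA-binding subunit of the complex that the receptor activates, had signals of 11.9, 22.5 and 17.4 on day 15 and 142, 125, 133 and 102 on day 18 (change 2.90, SE 0.31, limma adjusted p = 0.000322). IRF5, a factor that also induces cytokines, rose by 1.35, and both genes were called whichever array was left out. STAT3 (1.25) and the RNA sensor TLR7 (1.26) rose too, but neither was called under all 3 scalings nor without day 15 replicate 2.

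The receptor chains went the other way or did not change detectably. IFNAR1, a chain of the type I interferon receptor, was called lower and was well above background in all 3 arrays of day 15 and in none of day 18, and no size can be given because its signal on day 15 (0.0850 to 0.118) lay near the lowest signals detected on day 18. The call was lost without any array of day 15 and without day 18 replicate 1, 2 or 3. The other chain, IFNAR2, had a change of -0.23 and was not called. Among negative regulators, SOCS3 and SOCS2 had changes of 0.88 and 0.62 and were not called either.

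Of 22 tested genes of antigen presentation, 7 rose and 15 were not called, and 4 of the 7 were called under all 3 scalings. All 22 had positive changes, with a median of 0.94. PSMB9, PSMB8 and PSMB10 are the catalytic subunits of the immunoproteasome, PSME2 belongs to its activator, B2M is the light chain of class I molecules, and BOLA-DMB loads peptides onto class II molecules. PSMB9 had signals of 15.0, 21.3 and 16 on day 15 and 66.6, 67.9, 110 and 46.2 on day 18 (change 2.01, SE 0.32, limma adjusted p = 0.00187). B2M went from 161, 148 and 167 to 392, 410, 598 and 349 (change 1.43, SE 0.30, adjusted p = 0.00748), and BOLA-DMB rose by 1.70. PSMB8 (1.36), PSME2 (1.28), PSMB10 (1.24) and the lysosomal protease CTSS (1.02) rose less, and PSMB10 and CTSS lost their calls without day 15 replicate 1 or 3 (CTSS also without day 15 replicate 2 or day 18 replicate 2 or 3). Class II chains were not called despite positive values, with 2.56 for BOLA-DQB and 0.74 for BOLA-DRA.

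Chemokines draw leukocytes into tissue and, in the uterus, also act on the conceptus. Of 31 tested chemokines and receptors, 6 were called higher (19.4%, against 9.18% of all symbols) and none lower, with a median change of 0.57. Among the 6, CXCR3 was well above background in no array of day 18. CCL8, a ligand for monocytes, had signals of 2.63, 2.58 and 1.48 on day 15 and 17.8, 28.4, 59.4 and 21.0 on day 18 (change 3.71, SE 0.66, limma adjusted p = 0.00357). CXCL10, which attracts T and natural killer cells through CXCR3, rose by 3.47 (SE 0.53, adjusted p = 0.00150), and CCL11, which attracts eosinophils, rose by 4.32 (SE 0.94, adjusted p = 0.00952), although CCL11 was not called without day 15 replicate 1. In all 3 genes day 18 replicate 3 was the highest of the 7 arrays.

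CCL2, the main attractant of monocytes, had 1.43, 1.31 and 3.55 on day 15 and 6.46, 7.16, 14.8 and 5.75 on day 18, with a rise of 2.08 (SE 0.44, adjusted p = 0.00826). CXCL16 rose by 1.27, but it was not called under all 3 scalings, nor without day 15 replicate 1 or 3. CXCR3, the receptor of CXCL10, was called higher but was well above background in 1 array of day 15 and in none of day 18, so it has no size. CCL14 had a change of -0.48 and CCL16 of -0.27, and neither was called. Probes for CCR1 and CCR3 were too dim to be tested, and CCR2 had no probe.

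Among cytokines and their receptors, 5 of 28 rose (17.9%, against 9.18% of all symbols) and none fell, with a median change of 0.44. TNFSF13B, a survival factor of B cells, had signals of 0.167, 0.151 and 0.0734 on day 15 and 1.26, 1.58, 2.26 and 0.554 on day 18 (change 3.36, SE 0.54, limma adjusted p = 0.00214). IL1RN, which blocks the interleukin-1 receptor, went from 2.06, 1.86 and 1.79 to 8.65, 7.73, 11.2 and 7.47 (change 2.19, SE 0.47, adjusted p = 0.00895). IL6 rose by 2.24, but it was well above background in 2 of 3 arrays of day 15 and 2 of 4 of day 18. The death receptor FAS (1.83) and IL15 (1.65), which supports natural killer cells, were called with less margin. FAS was not called without day 15 replicate 1 or 3, and IL15 was not called without any of the 7 pregnant arrays. IL1B (-0.67), IL10 (-0.09) and IFNG (2.20) were not called, and probes for TNF and LIF were too dim to be tested.

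Markers of leukocytes changed unevenly. Of 24 tested myeloid markers, 9 rose and none fell, with a median change of 0.81, but 4 of the 9 were called under all 3 scalings, and the count was 2 without day 15 replicate 1 or 3. S100A8 and S100A12 are calcium-binding proteins of neutrophils and monocytes. S100A8 had signals of 0.0750, 0.102 and 0.0975 on day 15 and 0.661, 0.882, 1.99 and 0.692 on day 18 (change 3.38, SE 0.83, limma adjusted p = 0.0157), and S100A12 rose by 3.36 (SE 0.79, adjusted p = 0.0128). CD83, found on mature dendritic cells, went from 2.04, 2.67 and 2.57 to 8.09, 9.63, 11.4 and 5 (change 1.76, SE 0.34, adjusted p = 0.00571), and it was the only myeloid marker named here that was called whichever array was left out.

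The scavenger receptor MSR1 (1.73), the Fc receptor FCGR1A (1.71), CD86 (1.58, 1 of 4 arrays of day 18 well above background), and AIF1 (1.54) rose as well. FCGR1A, CD86 and AIF1 were called neither under all 3 scalings nor after the GC trend was removed. The general macrophage markers CD68 and CD14 had changes of 0.31 and 0.94 and were not called. Markers of T, natural killer and B cells had 2 rises of 27, the activation marker CD69 (1.98) and the Fc receptor FCGR3A (1.86), with a median of 0.29 that became -0.01 after division by the 75th percentile. CD3E (0.88), CD8A (-0.79) and the B cell gene CD79A (-0.75) were not called. The defining leukocyte genes PTPRC and MS4A1 were well above background in none of the 4 arrays of day 18, and the summed signal of the 8 leukocyte markers on the array was 4.00 to 5.32 on day 15 and 4.63 to 9.10 on day 18.

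Complement proteins tag particles and cells for removal. Of 21 tested members of this list, 7 rose and 2 fell, with a median change of 1.08, and 8 of the 9 calls held under all 3 scalings. C2, a protease of the classical pathway, had signals of 0.586, 0.343 and 0.553 on day 15 and 4.47, 3.25, 5.18 and 2.68 on day 18 (change 2.97, SE 0.38, limma adjusted p = 0.000665). C4A went from 75.3, 96.5 and 46.6 to 502, 424, 420 and 283 (change 2.52, SE 0.38, adjusted p = 0.00152), and C1QB from 17.8, 13.6 and 18.8 to 67.4, 86.0, 142 and 63.3 (change 2.35, SE 0.35, adjusted p = 0.00149). The groups did not overlap in any of these 3 genes, as in 45.9% of all symbols. C1QC rose by 1.86 and C1R by 1.93, the latter not without day 15 replicate 2. C1QA, which encodes the partner chain of C1QB and C1QC, had a change of -0.83 on its probe and was not called. C3 rose by 2.20, with 2 of 3 and 2 of 4 arrays well above background. CFD, the protease of the alternative pathway, fell by 1.67, and VTN, an inhibitor of the terminal complex, fell by 1.35.

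Of 35 tested genes of luteolysis and steroid receptors, 2 rose (5.71%, against 9.18% of all symbols) and 2 fell (5.71%, against 3.73%), and 31 were not called. In the cycle, estrogen and oxytocin receptors together allow the pulses of prostaglandin F2 alpha that end the corpus luteum. OXTR, the oxytocin receptor, had signals of 1.44, 2.11 and 1.52 on day 15 and 2.16, 0.752, 3.56 and 1.22 on day 18, which overlapped (change -0.03, SE 1.38, limma adjusted p = 0.989). PTGS2, the inducible cyclooxygenase, had 28.3, 40.4 and 27.2 on day 15 and 37.5, 23.6, 48.6 and 33.5 on day 18 (change 0.14, SE 0.76, adjusted p = 0.920). For ESR1, the estrogen receptor, the probe used was well above background in 2 of the 3 arrays of day 15 and in none of day 18, so it has no size here, and it was not called.

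The rises were those of AKR1C4 (2.62), an aldo-keto reductase, and PTGER2 (2.17), a receptor of prostaglandin E2. PTGER2 had signals of 0.615, 0.336 and 0.503 on day 15 and 1.80, 1.83, 1.98 and 3.12 on day 18, and it kept its call whichever array was left out, as did HSD17B1, a steroid dehydrogenase, which fell by 2.05. AKR1C4 lost its call without day 15 replicate 2 or 3 or day 18 replicate 4. PTGDS, which makes prostaglandin D2, fell by 1.27 and was not called without any of 6 of the pregnant arrays (all but day 18 replicate 1). Progesterone receptor (PGR) had a change of 0.59 and was not called.

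FABP3, a carrier of fatty acids, had one of the largest rises outside the trophoblast and interferon lists. Its signals were 4.44, 2.85 and 5.01 on day 15 and 69.4, 74.2, 150 and 118 on day 18, a change of 4.61 (SE 0.83, limma adjusted p = 0.00397), and the groups lay far apart. Of 41 tested genes of the histotroph and endometrial secretion, 5 rose and 1 fell, close to the background share. ALDH1A1, which makes retinoic acid, went from 8.95, 14.5 and 10.2 to 51.4, 50.9, 71.0 and 98.9 (change 2.58, SE 0.47, adjusted p = 0.00397), but another probe of the gene had a change of -1.13. The lysosomal cathepsins CTSC (1.61) and CTSZ (1.32) rose, CTSC not without any array of day 15 and CTSZ not without day 15 replicate 1. CRABP2, a carrier of retinoic acid, fell by 1.68 and lost this call without any array of day 15 or without day 18 replicate 3 or 4. The uterine serpin SERPINA14 and the secreted adhesion protein SPP1 had changes of 3.51 and 2.69 and were not called.

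Nutrient transporters had 4 rises among 41 tested genes and no fall. SLC16A1, a carrier of lactate and pyruvate, had signals of 0.802, 0.466 and 0.882 on day 15 and 3.53, 3.89, 6.06 and 4.60 on day 18 (change 2.68, SE 0.48, limma adjusted p = 0.00382). AQP4, a water channel, went from 3.97, 2.88 and 1.55 to 12.2, 21.3, 14 and 14.2 (change 2.53, SE 0.46, adjusted p = 0.00405). AQP8, another water channel, rose by 1.80, and this call was lost without day 15 replicate 2 or 3. The taurine transporter SLC6A6 rose by 1.26, a call lost without any of 6 of the pregnant arrays. The glucose transporters SLC2A1 (1.51) and SLC2A5 (0.64) were not called. List medians were small here: 0.22 for transporters and 0.29 for secretion, and both were below 0 after division by the 75th percentile (-0.08 and -0.01).

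In sterol and lipid metabolism, 7 of 44 genes rose (15.9%, against 9.18% of all symbols) and 1 fell, 4 of them under all 3 scalings. ELOVL6, which lengthens fatty acids, had signals of 2.65, 2.48 and 2.65 on day 15 and 11.2, 10.9, 16.4 and 17.4 on day 18 (change 2.40, SE 0.33, limma adjusted p = 0.000859). SCD, which desaturates them, rose by 2.46 and the fatty acid synthase FASN by 1.66, while HMGCS1 (1.20) and FDFT1 (1.15) of cholesterol synthesis and HADHB (1.22) of fatty acid oxidation rose less. Apart from ELOVL6 and FABP3, no call of this list held whichever array was left out, and the count was 2 without day 15 replicate 1. The sterol receptor NR1H2 fell by 1.28.

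Genes of cell division rose in part. Of 30 tested members, 10 rose and none fell, with a median change of 0.98. CCNB2, a cyclin of mitosis, had signals of 0.240, 0.377 and 0.239 on day 15 and 1.55, 2.93, 3.73 and 2.49 on day 18 (change 3.19, SE 0.47, limma adjusted p = 0.00132), and the kinase AURKA went from 0.229, 0.290 and 0.277 to 0.548, 0.749, 0.899 and 1.40 (change 1.68, SE 0.34, adjusted p = 0.00678). RRM2 (2.44), NUSAP1 (1.91), CENPF (1.82), CDK1 (1.48), PRC1 (1.39) and CKS1B (1.11) rose too, and of these NUSAP1 alone was called whichever array was left out. The replication genes MCM5, MCM7 and MCM3 had changes of 0.18, 0.12 and 0.09, and none was called. Under all 3 scalings 5 of the 10 calls held, and 3 remained without day 15 replicate 1 or 3 or without day 18 replicate 3. In CCNB2 and AURKA, day 18 replicate 1, with the least trophoblast signal of its group, had the lowest value of the 4, and the part of trophoblast transcripts in these changes was not tested.

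Stress genes had 6 rises of 36 (16.7%, against 9.18% of all symbols) and no fall. Under all 3 scalings 2 of them held, those of the transcription factor ATF3 (2.17) and of TRIB3 (2.14). ATF3 had signals of 3.68, 4.76 and 7.11 on day 15 and 26.8, 17.0, 23.0 and 24.0 on day 18. The chaperones DNAJA1 (1.35) and HSPE1 (1.32), the mitochondrial dismutase SOD2 (1.28) and XBP1 (1.03) rose as well, and XBP1 overlapped between the days and was not called without 8 of the 15 arrays. The immediate early genes FOS (0.56), EGR1 (0.69) and JUN (-1.91) were not called.

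Epithelial genes went in both directions. Of 26 tested, 5 rose (19.2%, against 9.18% of all symbols) and 3 fell (11.5%, against 3.73%). FOXA2, the transcription factor of uterine glands, had signals of 1.15, 0.740 and 0.132 on day 15 and 3.10, 3.84, 4.18 and 4.82 on day 18 (change 3.03, SE 0.71, limma adjusted p = 0.0128), a call lost without day 15 replicate 3, the lowest array. EPCAM, an adhesion molecule of epithelia, went from 52.0, 62.7 and 41.5 to 121, 137, 164 and 144 (change 1.45, SE 0.35, adjusted p = 0.0143), and CLDN1 (1.90), DSC2 (1.39) and GRHL2 (1.25) also rose. In contrast, E-cadherin (CDH1), the main adhesion protein of epithelial cells, had 17.2, 7.30 and 8.87 on day 15 and 2.77, 0.712, 0.778 and 2.5 on day 18 (change -2.89, SE 0.74, adjusted p = 0.0192). CLDN3, a tight junction protein, went from 64.1, 51.5 and 37.1 to 19.2, 5.10, 3.12 and 13.1 (change -2.64, SE 0.64, adjusted p = 0.0145). In both genes replicates 2 and 3 of day 18 were the lowest of all 7 arrays.

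Without day 15 replicate 1, 1 epithelial gene stayed called. FOXA2 depended on day 15 replicate 3, and each of the other 7 was lost without that replicate 1 and at least 1 further array. The cytokeratins KRT8 (1.06) and KRT19 (1.12) were not called, but their values lay in the direction of EPCAM. The summed signal of the 4 epithelial markers on the array was 92.6 to 112 on day 15 and 198 to 296 on day 18. However, CDH1, one of the 4, lay the other way, with 7.30 to 17.2 and 0.712 to 2.77. The sum rests mostly on the probes with the highest signals, those of EPCAM and KRT8.

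Of 20 smooth muscle genes tested, 5 fell, none rose and 15 were not called, the median change was -0.54, and 4 of the 5 were called under all 3 scalings. The summed signal of the list overlapped between the days, with 446 to 502 on day 15 and 450.1 to 646 on day 18. ACTA2, smooth muscle actin, had signals of 1.56, 4.03 and 2.38 on day 15 and 1.08, 0.239, 0.244 and 0.251 on day 18 (change -2.80, SE 0.67, limma adjusted p = 0.0136). Calponin (CNN1) went from 33.3, 45.8 and 41.6 to 28.9, 8.62, 8.11 and 6.86 (change -1.88, SE 0.55, adjusted p = 0.0320). In both, day 18 replicate 1 lay near the lowest array of day 15, and the other 3 arrays of day 18 were much lower. Desmin (DES) fell by 1.40 and filamin A (FLNA) by 1.02, and KCNMB1, a subunit of a potassium channel of muscle, fell at least 2.5-fold. No member was called without day 15 replicate 2. MYL9, a myosin light chain, had a change of 1.22 and was not called.

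The extracellular matrix had 8 falls (15.4%, against 3.73% of all symbols) and 1 rise among 52 tested genes. All 9 were called under each of the 3 scalings, and the median change was -0.36. COL3A1, a fibrillar collagen, had signals of 406, 431 and 445 on day 15 and 183, 223, 221 and 159 on day 18 (change -1.13, SE 0.24, limma adjusted p = 0.00910), the tightest of these genes. COL1A1 went from 1.46, 1.01 and 1.42 to 0.427, 0.515, 0.366 and 0.320 (change -1.67, SE 0.41, adjusted p = 0.0161). The metalloproteinases MMP14 (-1.50) and MMP2 (-1.41), the collagen cross-linker LOX (-1.30) and COL18A1 (-1.86) fell as well. POSTN, a matrix protein of fibroblasts, fell at least 2.79-fold. ITGA2, a chain of a collagen receptor, rose by 1.80, but it was well above background in 2 arrays of each day. The count was 3 without day 15 replicate 3. COL4A1 (-0.38), FN1 (0.28) and DCN (-0.44) were not called.

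Growth factors had 1 rise (2.44%, against 9.18% of all symbols) and 5 falls (12.2%, against 3.73%) among 41 tested genes. IGFBP1, which binds insulin-like growth factors, had signals of 53.6, 42.5 and 84.4 on day 15 and 4.34, 20.02, 3.49 and 8.82 on day 18 (change -3.00, SE 0.81, limma adjusted p = 0.0240). IGF2 itself went from 2.54, 1.93 and 1.25 to 0.621, 0.227, 0.0917 and 0.401 (change -2.77, SE 0.64, adjusted p = 0.0120). NOS3, the endothelial nitric oxide synthase, fell by 1.59 from 4.64, 5.4 and 3.64 to 1.62, 1.43, 1.53 and 1.39. The groups did not overlap in any of these genes, as in 45.9% of all symbols. IGFBP1 and IGF2 belong to the largest falls, a set limited to genes without overlap. FGFR2, a receptor for fibroblast growth factors, rose by 1.76, and its other probe had a change of 1.67. FLT1, a receptor of VEGF, was called lower, but it was well above background in no array of day 18 and the signals of day 15 (0.0586 to 0.156) lay near the detection limit there, so no fold is given. VEGFA (-0.68), KDR (-0.69) and IGF1 (-1.33) were not called. Without day 15 replicate 1 or 2, 1 gene of this list stayed called.

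Of 25 endothelial and adhesion genes, 2 fell (8.0%, against 3.73% of all symbols) and 1 rose (4.0%, against 9.18%). PECAM1, an adhesion molecule of endothelium, fell by 1.12, a call at the very threshold that was lost without any of the 7 pregnant arrays. The receptor TIE1 fell by 1.82 (not without day 15 replicate 2), with 1 of the 4 arrays of day 18 well above background. The summed signal of the 3 endothelial markers was 0.695 to 0.879 on day 15 and 0.336 to 0.515 on day 18, but CDH5, one of the 3, lay the other way, with 0.0941 to 0.134 and 0.111 to 0.177, and VWF and CDH5 were well above background in 2 of the 4 arrays of day 18. That of the 5 stromal markers overlapped, with 160 to 198 and 149 to 197.

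Stromal and developmental regulators had 2 rises and 2 falls of 34, which is near the background. ID1 (1.17) and ID2 (1.12), inhibitors of differentiation that BMP signals induce, rose, and the ligand BMP4 fell at least 1.70-fold. The intermediate filament vimentin (VIM) fell by 1.02, with 46.6, 34.2 and 56.9 on day 15 and 19.0, 15.7, 33.8 and 23.8 on day 18. None of the 4 stayed called without day 15 replicate 1 or 2. HOXA10 (0.12) and NR2F2 (0.12), regulators of the uterine stroma, were not called.

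Some of the largest changes fell outside these lists. GJB2 and GJB6, which encode gap junction proteins, rose together. GJB2 had signals of 0.0867, 0.0804 and 0.0812 on day 15 and 1.20, 0.554, 2.58 and 1.42 on day 18 (change 3.92, SE 0.70, limma adjusted p = 0.00387), and GJB6 went from 0.0924, 0.104 and 0.114 to 1.52, 0.657, 3.35 and 1.71 (change 3.91, SE 0.76, adjusted p = 0.00553). The arrays took the same order in both genes on day 18, replicate 2 lowest and replicate 3 highest. TIMD4, a phosphatidylserine receptor of macrophages, had 1.61, 2.65 and 1.88 on day 15 and 18.0, 29.9, 58.1 and 21.9 on day 18 (change 3.85, SE 0.42, adjusted p = 0.000322). CD180, a relative of the Toll-like receptors on B cells and macrophages, rose by 4.05 (SE 0.59, adjusted p = 0.00118). These 4 genes were called whichever array was left out. UPK1B (3.87) and GABRP (3.99) rose as well, but UPK1B was not called without day 15 replicate 1 or 3 or day 18 replicate 3, and GABRP was not called without any of the 7 pregnant arrays.

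Among the largest falls, PSPH, the last enzyme of serine synthesis, had signals of 7.67, 2.56 and 6.14 on day 15 and 0.404, 1.07, 0.351 and 0.684 on day 18 (change -3.12, SE 0.64, limma adjusted p = 0.00748). The keratin gene KRT35 went from 5.28, 8.45 and 6.91 to 0.604, 0.679, 0.839 and 1.10, with a change of -3.10 (SE 0.47, adjusted p = 0.00149). Both were called whichever array was left out, as were GNAO1 (-2.69) and the neuronal gene LRRN2, which fell at least 1.44-fold. OPTC (-2.96), GPR37L1 (-2.83), METTL2A (-2.60), VpreB (-2.56) and CHD5 (at least 2.07-fold) each lost their call without at least 2 arrays, day 15 replicate 1 among them. GPR37L1, METTL2A and VpreB had the order of arrays seen in CDH1 and CLDN3, with replicates 2 and 3 of day 18 below replicates 1 and 4.

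The change in pregnancy was set beside the change between the same days of the cycle, which used none of the same arrays. The NP15 arrays were scanned on 3 days and the NP18 arrays on 1, and no group shared a scan day with another. The change in the cycle, and the difference between the changes, therefore cannot be told apart from scan day either. In the cycle 466 symbols (7.49%) were called between days 15 and 18. Of these, 97 were also called in pregnancy, which is 20.8% of the cycle calls and 12.1% of the pregnancy calls, and 89 of the 97 had the same direction. Of the symbols that fell in pregnancy, 19.8% fell in the cycle too, and of those that rose, 7.53% rose in the cycle. The 7.49% of all symbols given above covers both directions, so it is not the background of either share. With limma run on 1 probe per symbol, 203 of 6218 symbols were called higher in the cycle and 275 lower. The difference between the changes was called for 193 symbols (3.10%), 156 higher and 37 lower in pregnancy. Over probes, 358 were called, 272 higher and 86 lower, but this split depended on the scaling, with 160 higher and 120 lower after division by the 75th percentile, 275 and 187 after quantile normalization, and 179 and 102 with the GC trend of each array removed, an alternative added after the data were seen. The count of probes was 59 without day 15 replicate 1 and 549 without NP15 replicate 3, and with scan day as a block in limma 0 were called (844 at an unadjusted p under 0.05).

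**Figure D3:**
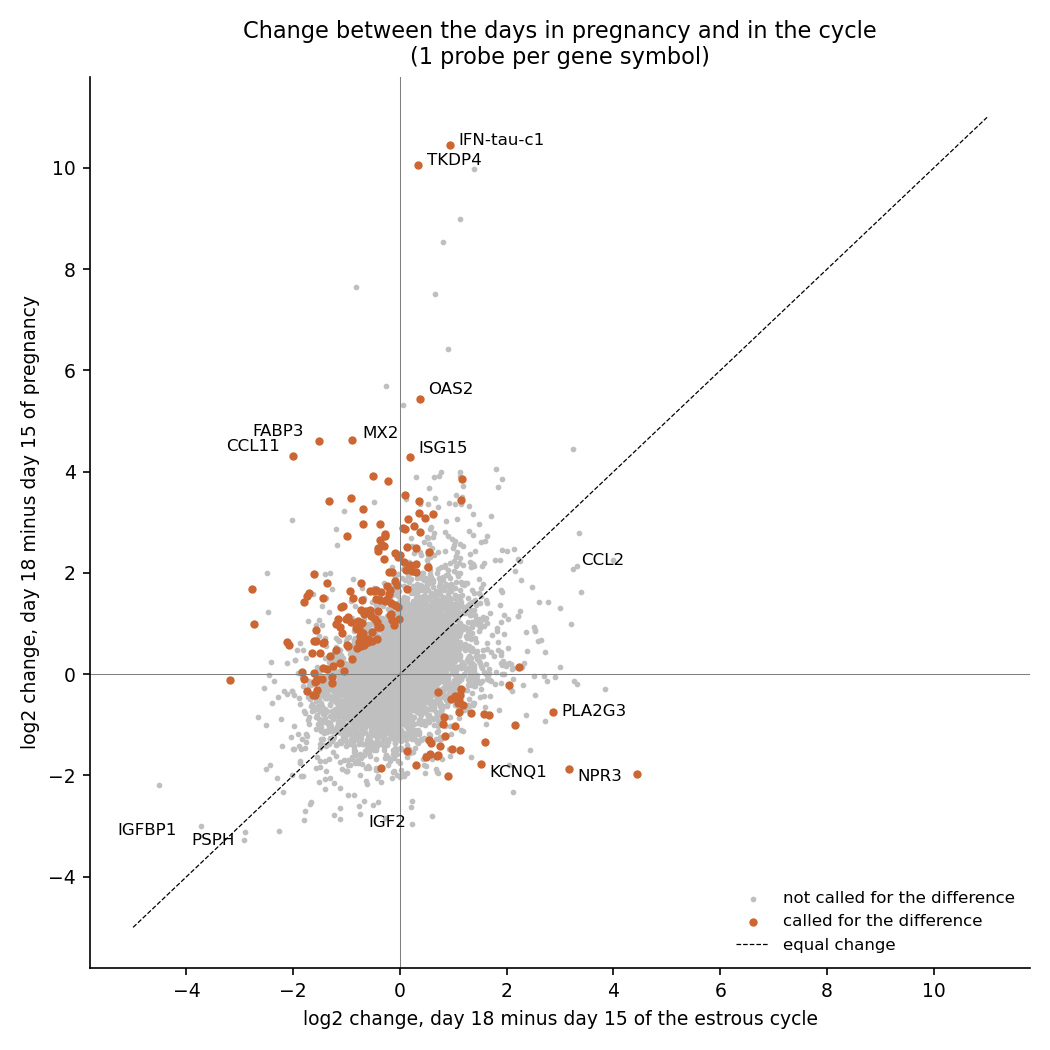
Change between days 15 and 18 of pregnancy (y axis, log2) against the change between the same days of the estrous cycle (x axis, log2), 1 point per gene symbol, with the 193 symbols called for the difference in orange and a dashed line at equal change. IFN-tau-c1, TKDP4, OAS2 and ISG15 lie high and near 0 on the x axis, whereas CCL2, IGFBP1 and PSPH moved the same way in the cycle.

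The interferon-stimulated list held 23 of these calls, all higher in pregnancy, and its median change in the cycle was 0.01. ISG15 had a change of 0.19 in the cycle (difference 4.09, limma adjusted p = 0.0143) and MX2 of -0.91 (difference 5.53, adjusted p = 0.00921). CCL11 (6.32) and FABP3 (6.13) had larger differences, and in the cycle CCL11 had a change of -2.0 and FABP3 of -1.52, neither of them called. C2 (3.34) and C4A (2.38) of complement, CCNB2 (2.83) and ELOVL6 (2.5) also differed from the cycle.

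Other genes that rose in pregnancy rose in the cycle as well. CCL2 rose by 3.24 between days 15 and 18 of the cycle, and the difference of -1.17 was not called (adjusted p = 0.302). CXCL16 (1.35 in the cycle), IL6 (2.25), CD83 (1.20), CTSC (1.49), PTGER2 (1.36), TRIB3 (1.53) and ID1 (1.41) also rose in the cycle. Falls shared with the cycle were those of IGFBP1 (-3.73 in the cycle), PSPH (-2.90), KRT35 (-2.26), GNAO1 (-1.78), VTN (-1.76), PTGDS (-1.43), HSD17B1 (-1.31) and NR1H2 (-1.26). For none of these 16 genes was the difference from the cycle called.

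Lower in pregnancy relative to the cycle were NPR3, a clearance receptor of natriuretic peptides (difference -5.04), PLA2G3 (-3.61), the potassium channel KCNQ1 (-3.30), POSTN (-2.90) and the stem cell factor KITLG (-2.62). NPR3, POSTN and KITLG were well above background in no array of day 18 of pregnancy, so their differences include signals near background. NPR3 and PLA2G3 rose in the cycle by 3.17 and 2.86 and were not called between the days of pregnancy. KCNQ1 rose by 1.52 in the cycle and fell in pregnancy by 1.78, with 1.00, 1.00 and 0.690 on day 15 and 0.267, 0.208, 0.201 and 0.399 on day 18. KITLG rose by 1.13 in the cycle and fell in pregnancy at least 1.34-fold. NOS3 (difference -2.30) and VIM (-2.05) also differed, VIM with a rise of 1.03 in the cycle.

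**Figure D4:**
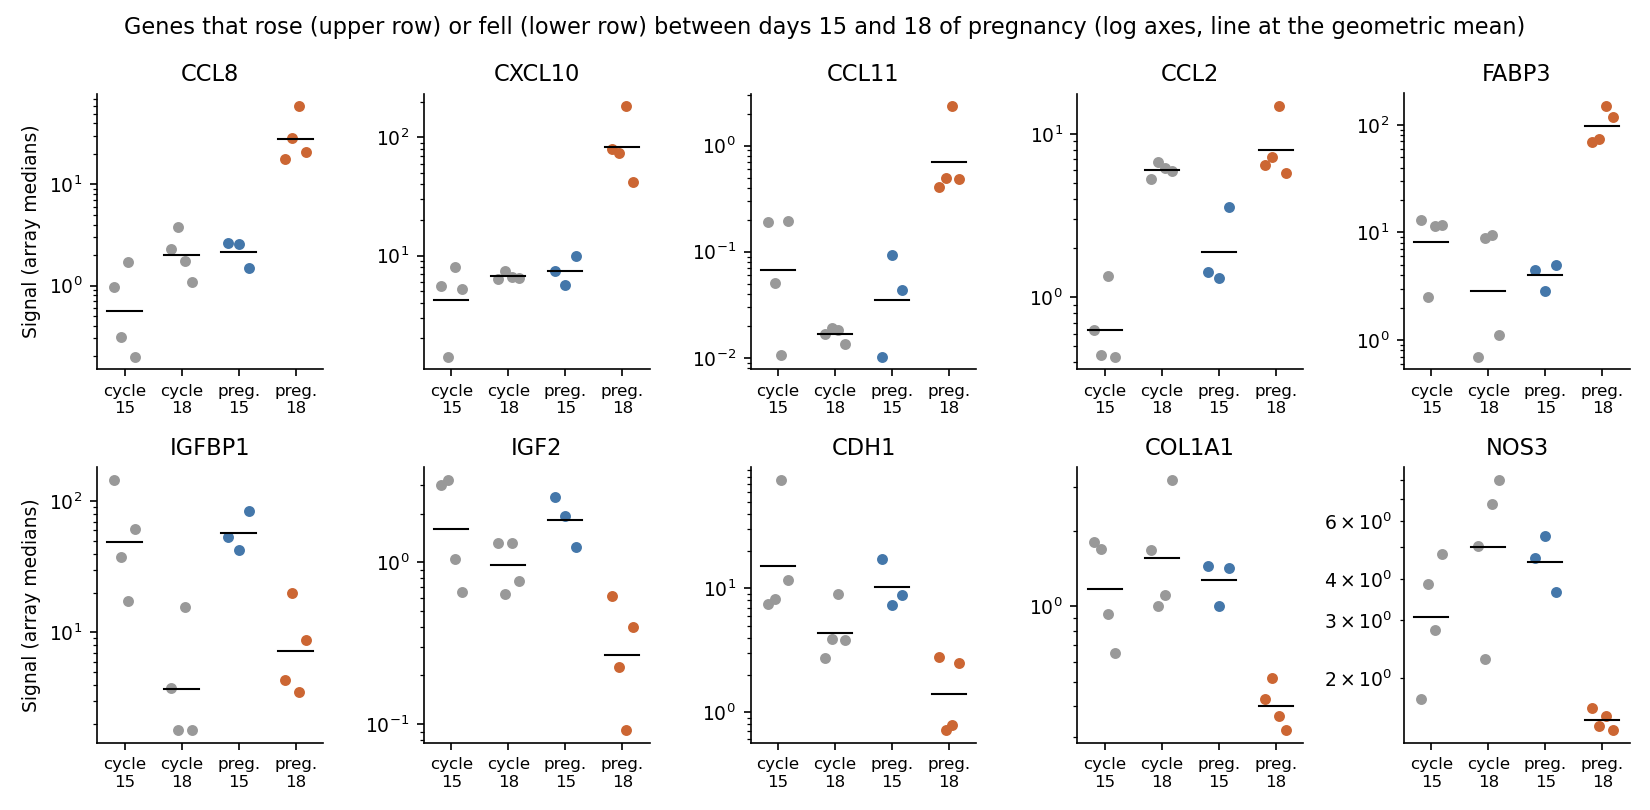
Signal (y axes, array medians, log scale) of 5 genes that rose and 5 that fell between days 15 and 18 of pregnancy, in all 15 arrays, with 1 point per cow and a line at the geometric mean of each group. FABP3 (69.4 to 150) on day 18 of pregnancy lies above all other arrays, NOS3 (1.39 to 1.62) lies below them, and CCL2 and IGFBP1 show the same direction in the cycle.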

How the data were processed

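The authors scanned 1 array per cow, and the deposited tables, made with Agilent Feature Extraction 9.5 per the labels, give background-corrected processed signals on a linear intensity scale with no scaling between arrays. The authors also deposited a log2 table of the same arrays, which equalled log2 signal minus a constant within 0.0126 of log2 of the 75th percentile of each array, and it served as an alternative. Control and outlier spots were left out, each intensity was divided by its array's median, log2 was taken, and probes well above background in 3 or more of 15 arrays were tested with limma 3.58.1 (R 4.3.3) over the 4 groups. Tables and figures used Python 3.11.15. In simulated data, 57.5% of changes of 1.5 and 83.5% of 2.5 (log2) were recovered for day 18 minus day 15, and 17% and 68% for the difference from the cycle. The simulated arrays had independent noise, with no effect of scan day and no shift of the detection limit between the days. These shares therefore do not cover either of them. The number of arrays limits the precision.

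Of the probes, 7237 had a gene name, 7129 of them taken from RefSeq genes (ARS-UCD2.0 assembly), and the brightest probe stood for a gene. Named were every gene of the paper with a probe, up to 8 called members of each list, and the 15 largest rises and falls among symbols called, not overlapping and well above background in the whole higher group. Also named were the 5 largest called differences from the cycle each way, among symbols that met the same limits on overlap and background between the days of pregnancy. Uncalled members were named as examples. The members and lists (1089 genes, 650 tested) were chosen with earlier results of these data known. Promoter sequences were not analyzed here. SUZ12 had no probe. Some genes that met these rules are counted but not reported by name here. Alternatives were other scalings, background correction, filters, saturated spots as missing, array weights, another variance model, the pregnant arrays alone, slide, scan day or replicate number as a block, other call rules, 1 probe per symbol, and each array left out.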

Additional observations from a re-analysis of the deposited data

Results flagged for a closer look

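In 8 of 146 named genes, 1 of the 4 arrays of day 18 stood apart by Dixon's test (gap to the nearest array over the group's range, above the 95% critical value), and chance gives this in about 1 of 20 groups. The highest array stood apart in ACTA2 (0.967) and CNN1 (0.841), where it was replicate 1, and in CCL11 (0.887), CXCL16 (0.932) and MSR1 (0.856), where it was replicate 3. It also did in CXCR3 (0.873) and POSTN (0.882), which were not well above background there. In USP18 the lowest array, replicate 4, stood apart (0.894).

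For 27 named genes the change in pregnancy differed from the change in the cycle by the test of the difference itself, 20 higher and 7 lower in pregnancy. The count and its split were partly fixed by the naming rule. It takes the 5 largest called differences each way among symbols that did not overlap between the days of pregnancy and were well above background in the whole higher group. Over all 6218 symbols, 193 (3.10%) were called for the difference. Higher by the following differences (log2) were the trophoblast transcripts TKDP4 (9.72) and IFN-tau-c1 (9.51), and the chemokine CCL11 (6.32) and the fatty acid carrier FABP3 (6.13). The value for IFN-tau-c1 is a fitted one and no size, since its probe was well above background in none of the 3 arrays of day 15 of pregnancy, and TKDP4 was in 1 of the 3. Interferon-stimulated genes and their regulators had differences of 5.53 (MX2), 5.08 (OAS2), 4.42 (RSAD2), 4.09 (ISG15), 4.03 (IFIT3), 3.45 (RIGI), 2.83 (IRF9), 2.76 (MX1) and 1.90 (TLR7). Immune genes had 3.34 (C2), 2.69 (TIMD4), 2.38 (C4A) and 2.15 (PSMB9). Further differences were 2.83 for CCNB2, 2.53 for AQP8 and 2.5 for ELOVL6. Lower in pregnancy were NPR3 (-5.04), PLA2G3 (-3.61), KCNQ1 (-3.30), POSTN (-2.90), KITLG (-2.62), NOS3 (-2.30) and VIM (-2.05).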

How the results depend on the processing

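Of 143 called genes that met the rules for naming, none turned direction under any alternative in which single genes were compared. Among those run on all 7 arrays, 85 kept their call throughout, except with scan day as a block, under which all 143 were lost. The t-test, the rule with no fold limit and 1 probe per symbol were not part of this count. A gene removed by a filter was not counted as lost. The filters for probes well above background in all 15 or all 7 arrays kept 101 and 109 genes and lost 0. Leaving out each of the 7 arrays of pregnant cows in turn kept 67. For day 18 minus day 15, limma called 1566 probes, and 3080 without a filter, 2449 with array weights, 833 with 1 probe per symbol (fewer probes tested), 1008 under all 3 scalings and 0 with scan day as a block. Leaving out 1 array gave 737 (without day 15 replicate 1) to 1730 calls, with 784 without day 15 replicate 3, 883 without day 15 replicate 2 and 992 without day 18 replicate 3. For the difference from the cycle, 358 probes were called, and 1384 after normexp, 1499 with array weights, 179 with the slide as a block, 235 with 1 probe per symbol and 0 with scan day as a block (844 at an unadjusted p under 0.05, smallest adjusted p = 0.514). Leaving out 1 array gave 59 (without day 15 replicate 1) to 549 (without NP15 replicate 3). With the replicate number as a block, 1145 and 192 probes were called for the 2 comparisons. The numbers did not pair the cows, since deviations of same-numbered arrays correlated at -0.033 to 0.069. The interferon-stimulated list had 29 calls, 27 to 29 with 1 array left out and 0 with scan day as a block. The trophoblast list had 9, 7 to 9 with 1 array left out, and 0 with scan day as a block or when probes had to be well above background in all 15 or all 7 arrays, a filter that removes transcripts at background on day 15. Where no construction is named, the cause was not tested. With 3 and 4 arrays per group and higher detection limits on day 18, falls of dim genes are bounds.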

Other observations

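Several genes outside the lists had large changes on day 18 of pregnancy, and they were chosen here after their values were seen. FGFBP1, which releases fibroblast growth factors from the matrix, rose by 3.71 on the log2 scale, and the pattern recognition protein PTX3 by 3.55. The amino acid transporter SLC7A9 (3.42) and NT5E (3.27), the enzyme that makes adenosine outside the cell, rose in pregnancy and had changes of -1.33 and -0.69 in the cycle, and their differences from the cycle (4.75 and 3.96) were called. IL1R2, a decoy receptor of interleukin-1, rose by 3.04 (not under all 3 scalings) and had a change of -2.02 in the cycle, but its difference of 5.07 was not called.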
